A study of Mus with 8 samples.

Results

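The cell cycle S and G2/M genes are 41 genes whose mRNA rises when cells copy their DNA or divide, measured here in whole subcutaneous tumours of MC38 cells, a mouse colon cancer line. They were fixed by name, as 18 genes of the start and progress of DNA replication and 23 genes of mitosis, and each was represented by the probe of its RefSeq transcripts with the highest mean over the 8 arrays. All 41 had such a probe, well above background on every array on which it was read, out of 22911 genes named on the array and 31281 genes and transcripts tested. Tumours had grown in wild-type mice (WT host, 4 tumours) or in Ext1 flox/flox; S100a4-Cre mice (Ext1S100a4Cre host, 4 tumours), and were removed after 25 to 30 days. The labels give the B6 background for both hosts and no age, and do not say whether the wild-type mice carried the floxed alleles. Ext1 encodes a polymerase of heparan sulfate, and the S100a4 promoter that drives Cre is active in fibroblasts and also in some immune cells. The deletion was thus directed at cells of the host, and the labels describe no change to the transplanted MC38 cells. The study asked how loss of Ext1 in such host cells bears on tumour growth, and the genes described here are the transcripts that accompany cell division.

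A cell that is to divide first loads the MCM2-7 helicase onto replication origins with the help of Cdc6 and Cdt1, and E2F factors then switch on cyclin E and the replication enzymes at the passage from G1 to S phase. Genes of mitosis are transcribed later, in G2, and include the cyclins that activate Cdk1, the Aurora and Polo-like kinases, the kinetochore and the spindle. Resting cells keep most of these mRNAs low, and the genes are therefore widely used as proliferation markers in tumours. Whole-tumour RNA mixes MC38 cells with fibroblasts, immune cells, vessels and any adjoining tissue, and a lower level can mean fewer dividing cells or less of the mRNA per cell, which cannot be told apart in such samples.

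Levels are log2 processed intensities minus the array's 75th percentile, so that 0 is the brightness of that percentile, and they are compared between tumours, not between probes. The 75th percentile itself ran from 846.9 to 1265 intensity units, and 65.66% to 71.1% of probes were well above background, with the lowest values of both in Ext1S100a4Cre host tumours 1 and 4. Ext1 itself measured -0.55, -0.28, 0.24 and -0.14 in WT host tumours 1 to 4 and -0.62, -0.27, -0.54 and -0.42 in Ext1S100a4Cre host tumours 1 to 4, with overlap and a difference of -0.28 (SE 0.18, limma adjusted p = 0.747). The labels name no change of Ext1 in MC38 cells, and whether the probe lies in the floxed part was not settled, so this is no check of the deletion. The keratins Krt8 and Krt18, which mark epithelial cells such as carcinoma cells, were well above background in all 8 tumours. The Y-linked genes Ddx3y, Eif2s3y, Kdm5d and Uty gave signal above background in every WT host tumour and in Ext1S100a4Cre host tumours 2 and 3, but not in Ext1S100a4Cre host tumours 1 and 4. Results are also given without those tumours. The labels give 4 mice a host and do not tie each tumour to a mouse, and p-values measure the spread between these tumours.

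No replication gene and no mitotic gene passed the test between the hosts. Limma called 0 of 41 members at an adjusted p of 0.05, against 0% of all 31281 genes tested, and 0 of 41 had an unadjusted p under 0.05, against 6.55% of all genes. In 0 of 41 the levels of the hosts failed to overlap, against 4.54% of all genes. Of the 18 replication genes, 9 had a higher and 9 a lower mean in the Ext1S100a4Cre host, with a median difference (Ext1S100a4Cre host minus WT host) of 0.0082 log2 units. Of the 23 mitotic genes, 6 had a higher and 17 a lower mean, with a median difference of -0.063. Over all genes tested the median was 0.050, with 58.1% of genes higher and 41.9% lower by their mean. Averaged over the 17 replication genes read on all arrays, WT hosts had a level of 2.28 ± 0.26 and Ext1S100a4Cre hosts of 2.29 ± 0.35 (SD, n = 4 each). Over the 23 mitotic genes these were 2.20 ± 0.32 and 2.13 ± 0.51 (SD, n = 4 each). Both differences were smaller than the SD between tumours of either host. Signs of such small differences depend on the scaling: 18 of 41 members changed sign under at least 1 of 4 other scalings. Without any scaling 40 of 41 had a lower mean in the Ext1S100a4Cre host, but only 20.8% of all genes then had a higher mean there. A p that misses the threshold does not show equal levels: limma's 95% interval of a member's difference had a median half-width of 0.62 log2 units, and over the 41 members the intervals reached down to -1.14 and up to 1.08.

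**Figure D1:**
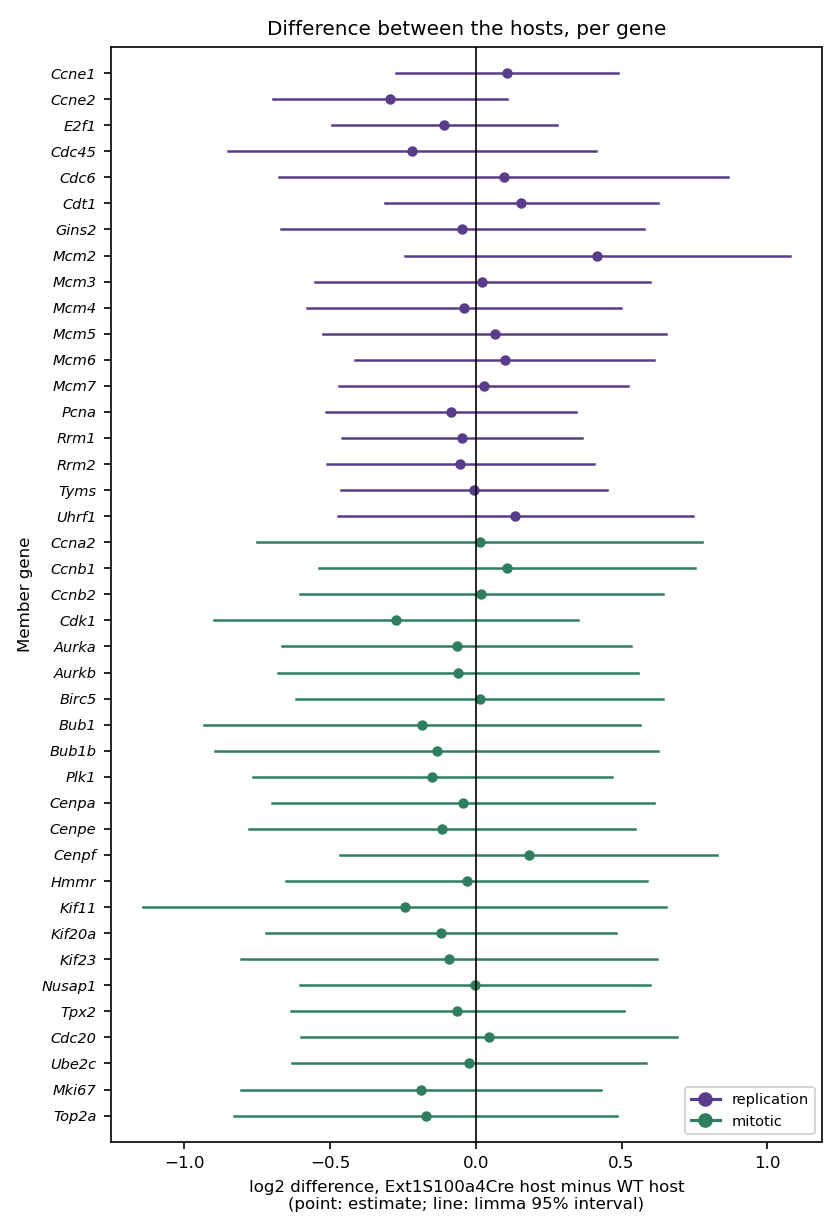
Log2 difference between the hosts (Ext1S100a4Cre host minus WT host, x axis) for each of the 41 genes (y axis), with points for the estimate and lines for limma's 95% interval. All 41 intervals cross 0, and Mcm2 lies farthest above 0 at 0.42 and Ccne2 farthest below at -0.29.

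Among the replication genes, 7 of the 10 that license and unwind origins had a higher mean in the Ext1S100a4Cre host and 3 a lower one, none past the test. Without scaling all but Mcm2 were lower, where only 20.8% of all genes were higher. Mcm2, a subunit of the helicase, had the largest difference of all members. It measured 2.27, 2.38, 1.47 and 1.95 in WT host tumours 1 to 4 and 2.85, 1.87, 2.23 and 2.80 in Ext1S100a4Cre host tumours 1 to 4. Ext1S100a4Cre host tumours 1 and 4 were the highest and WT host tumour 3 the lowest, and the hosts overlapped. Its difference was 0.42 (SE 0.29, 95% interval -0.24 to 1.08, limma adjusted p = 0.747, exact permutation p = 0.257), and was 0.17 without scaling. The other helicase subunits Mcm3, Mcm4, Mcm5, Mcm6 and Mcm7 differed by 0.022, -0.040, 0.064, 0.099 and 0.027. The value of Mcm7 rests on 7 arrays, because its spot in WT host tumour 4 was marked as an outlier by the scanner software and was left out. Cdc6, a loader of the helicase, measured 1.46, 1.52, 0.63 and 0.69 in the WT host and 1.65, 0.45, 0.99 and 1.60 in the Ext1S100a4Cre host. It differed by 0.096 (SE 0.33), with WT host tumours 3 and 4 and Ext1S100a4Cre host tumour 2 lower than the other 5.

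Cdt1, the other loader, averaged 4.12 ± 0.23 in WT and 4.28 ± 0.34 in Ext1S100a4Cre hosts (SD, n = 4 each). Cdc45 and Gins2, which join the MCM ring to form the active helicase, differed by -0.22 (SE 0.27) and -0.046 (SE 0.27). For Cdc45 the single values were -1.50, -1.28, -2.32 and -1.51 in the WT host and -1.45, -2.31, -2.06 and -1.69 in the Ext1S100a4Cre host. WT host tumour 3 and Ext1S100a4Cre host tumour 2 were the lowest and nearly equal.

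The genes that supply and clamp the replication machinery were at nearly the same mean in the hosts. Pcna, the sliding clamp of the DNA polymerases, measured 4.37, 4.48, 4.16 and 4.36 in the WT host and 4.66, 3.91, 4.05 and 4.41 in the Ext1S100a4Cre host. It differed by -0.085 (SE 0.19, limma adjusted p = 0.909), and the Ext1S100a4Cre host held both its highest and its lowest tumour. Rrm1 and Rrm2, the subunits of ribonucleotide reductase that makes deoxynucleotides, differed by -0.046 and -0.054, and Tyms, which makes thymidylate, by -0.0051. Uhrf1, which recruits maintenance DNA methylation to new DNA, differed by 0.14 (SE 0.26). Rrm1 had the smallest spread of these 5 genes over the 8 tumours (SD 0.23) and Uhrf1 the largest (SD 0.38).

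The regulators of S phase entry differed from each other in their pattern. Ccne2, a cyclin E gene that drives Cdk2 at the start of S phase, had the most negative difference of the members. It was also by far the dimmest member, though well above background on all 8 arrays. Its means were -4.98 in the WT host and -5.27 in the Ext1S100a4Cre host, against -1.66 and -1.88 for Cdc45, the next dimmest. Ccne2 measured -4.65, -4.87, -5.20 and -5.19 in the WT host and -5.16, -5.55, -5.09 and -5.28 in the Ext1S100a4Cre host. WT host tumours 1 and 2 were the 2 highest, and Ext1S100a4Cre host tumour 2 was the lowest. The difference of -0.29 (SE 0.17, 95% interval -0.70 to 0.11) had a limma adjusted p of 0.747 and an exact permutation p of 0.20, and it depended on the processing. It was 0.027 after normexp background correction, -0.54 without scaling and -0.39 with array weights. With the last 2 its unadjusted p was under 0.05, as for 8.72% and 10.5% of all genes, and its adjusted p, in limma, was 0.546 and 0.458, in a range over the alternatives from 0.458 to 0.983. Ccne1, the other cyclin E gene, differed the other way by 0.11 (SE 0.17), from 3.05 ± 0.24 to 3.16 ± 0.19 (SD, n = 4 each). E2f1, a transcription factor that activates S phase genes, measured 0.31, 0.36, 0.60 and 0.25 in the WT host and 0.41, -0.14, 0.45 and 0.36 in the Ext1S100a4Cre host. Its highest tumour was WT host tumour 3, in which nearly all other members were low.

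Of the mitotic genes, 17 of 23 had a lower mean in the Ext1S100a4Cre host and the differences ran from -0.27 to 0.18. Cdk1, the kinase that drives entry into mitosis, had the most negative. It measured 1.23, 1.18, 0.48 and 1.18 in WT host tumours 1 to 4 and 1.38, 0.32, 0.50 and 0.78 in Ext1S100a4Cre host tumours 1 to 4. Its difference was -0.27 (SE 0.27, 95% interval -0.90 to 0.35, limma adjusted p = 0.794, exact permutation p = 0.429), with overlap between the hosts. The cyclins that activate Cdk1 were nearer to 0 or above it with this scaling, and below it without scaling. Ccna2 (cyclin A2) differed by 0.013, Ccnb1 by 0.11 and Ccnb2 by 0.018. For Ccna2 the tumours of the Ext1S100a4Cre host spanned the whole range, with 4.15, 2.63, 3.25 and 3.97, and the WT host tumours lay inside it, at 3.69, 3.64, 3.19 and 3.43.

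Kinases of mitosis and genes of the spindle checkpoint, apart from Birc5, had negative differences under all 5 scalings, none past the test. These were small with this scaling, and ran from -0.44 (Bub1) to -0.31 (Aurkb) without scaling, where the median of all genes was -0.20. The Aurora kinases Aurka and Aurkb differed by -0.066 and -0.061, the Polo-like kinase Plk1 by -0.15, and the checkpoint genes Bub1 and Bub1b by -0.19 and -0.13. Birc5 (survivin), which works in a complex with Aurora B, differed by 0.013, and was below 0 with 3 of the 4 other scalings. Bub1 had the widest range of these across tumours and measured 0.99, 0.88, 0.50 and 1.08 in the WT host and 1.32, -0.19, 0.50 and 1.07 in the Ext1S100a4Cre host. Ext1S100a4Cre host tumour 2 alone was below 0, and Ext1S100a4Cre host tumour 1 was the highest.

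Of 9 kinetochore and spindle genes, 8 had a lower mean in the Ext1S100a4Cre host. Cenpf, a kinetochore protein, was the exception at 0.18 (SE 0.28; -0.068 without scaling), while the centromeric histone Cenpa and the kinetochore motor Cenpe differed by -0.043 and -0.12. Kif11, the kinesin that pushes spindle poles apart, had the widest spread of all members. It measured -0.50, -0.49, -1.45 and -0.51 in the WT host and -0.24, -1.98, -1.01 and -0.69 in the Ext1S100a4Cre host. That is a 3.33-fold span between Ext1S100a4Cre host tumours 1 and 2, and the difference between the hosts was -0.24 (SE 0.39). The kinesins Kif20a and Kif23, which act in cytokinesis, differed by -0.12 and -0.091, and the spindle proteins Tpx2, Nusap1 and Hmmr by -0.063, -0.0030 and -0.031.

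Cdc20 and Ube2c serve the anaphase-promoting complex, the ubiquitin ligase that ends mitosis, and differed by 0.045 and -0.023. Mki67 encodes the proliferation antigen Ki-67 and measured 4.21, 4.11, 3.78 and 4.24 in the WT host and 4.33, 3.19, 3.76 and 4.30 in the Ext1S100a4Cre host. Its difference was -0.19 (SE 0.27, limma adjusted p = 0.854). Ext1S100a4Cre host tumour 2 was the lowest, and 5 tumours from both hosts lay between 4.11 and 4.33. Top2a, the topoisomerase that untangles chromosomes, differed by -0.17, from 3.71 ± 0.24 to 3.54 ± 0.57 (SD, n = 4 each).

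Across single tumours, in contrast, the members moved together, over a wider range than the difference between the hosts. The mean of the mitotic genes was 2.40, 2.37, 1.73 and 2.28 in WT host tumours 1 to 4 and 2.63, 1.50, 1.94 and 2.44 in Ext1S100a4Cre host tumours 1 to 4. Ext1S100a4Cre host tumours 1 and 4 were the 2 highest, and Ext1S100a4Cre host tumour 2 and WT host tumour 3 the 2 lowest, so that the range of 1.14 log2 units (2.20-fold) lay inside the Ext1S100a4Cre host. The mean of the 17 replication genes was 2.47, 2.51, 1.95 and 2.21 in the WT host and 2.63, 1.85, 2.18 and 2.52 in the Ext1S100a4Cre host, with the same tumours highest and lowest and a range of 0.78 (1.72-fold). Of the 40 members read on all 8 arrays, 32 were highest in Ext1S100a4Cre host tumour 1, against 23.6% of all genes. In 28 the lowest was Ext1S100a4Cre host tumour 2, against 16% of all genes, and in 11 WT host tumour 3, against 31.8%. The members highest in Ext1S100a4Cre host tumour 1 fell to 19 with quantile normalization and to 0 without scaling.

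**Figure D2:**
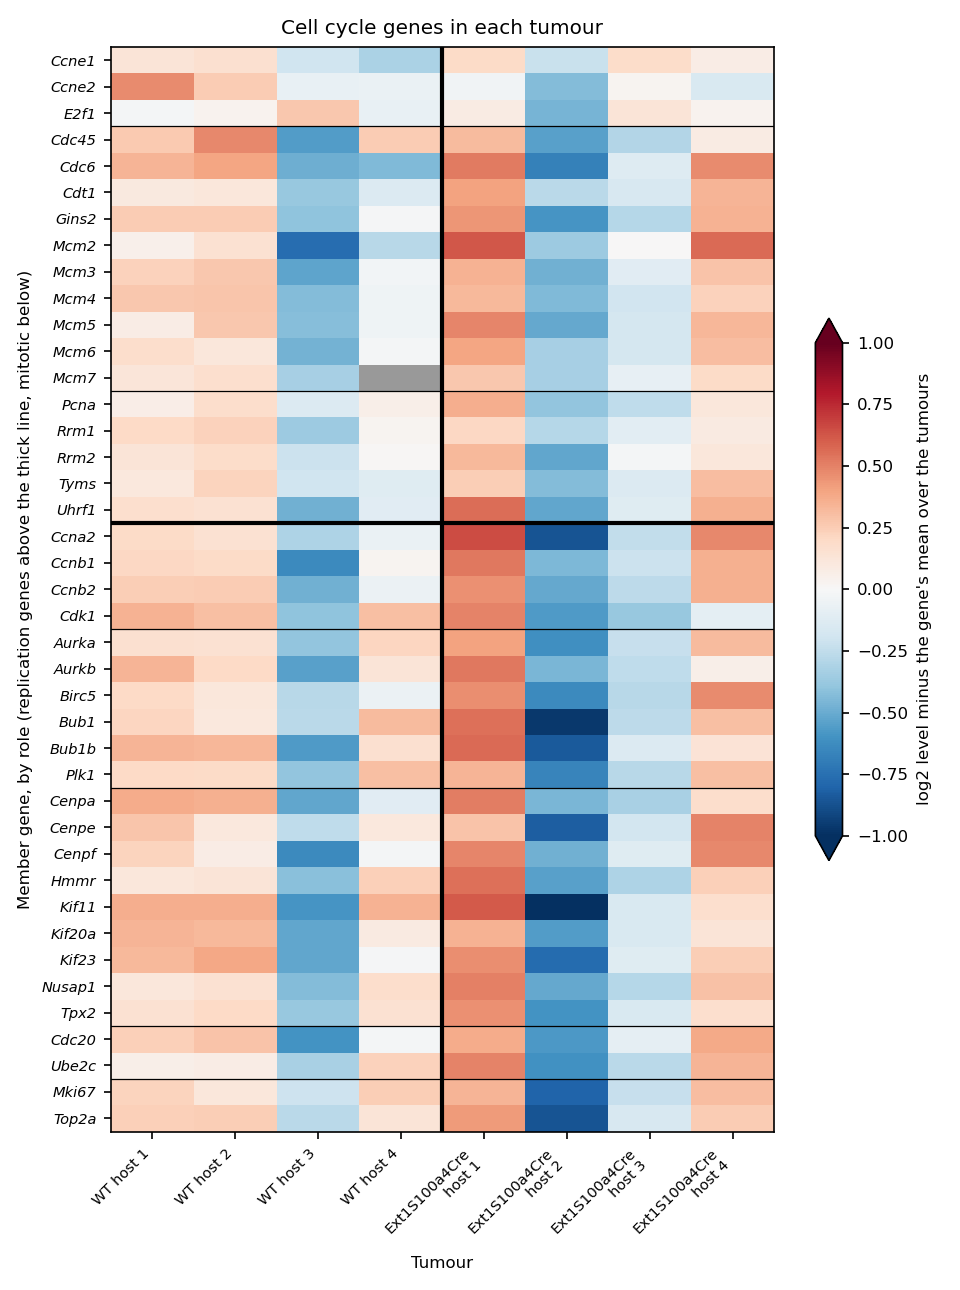
Colour gives the log2 level of each member (rows, by role) in each tumour (columns) minus that gene's mean over the tumours, from blue (lower) to red (higher), and grey marks the Mcm7 spot that was left out. WT host tumour 3 and Ext1S100a4Cre host tumour 2 are blue in nearly all rows, and Ext1S100a4Cre host tumour 1 is red in nearly all with the scaling used here, which without scaling it is not.

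The same tumours stood out member by member. Ext1S100a4Cre host tumour 2 was below the member's own mean over the tumours in all 41 members, WT host tumour 3 in 40 of 41 (E2f1 apart) and Ext1S100a4Cre host tumour 3 in 37 of 41. WT host tumour 2 was above it in 41, and WT host tumour 1 and Ext1S100a4Cre host tumour 1 were above it in 40. WT host tumour 4 was above it in 20 of the 40 members read there. These counts are for the scaling used here, and the same shares over all genes were not computed. Ext1S100a4Cre host tumour 1 was highest together with Ext1S100a4Cre host tumour 2 or WT host tumour 3 lowest in 31 of 40 members. This held for 17.2% of all genes. The 9 members that did not have Ext1S100a4Cre host tumour 1 highest together with Ext1S100a4Cre host tumour 2 or WT host tumour 3 lowest were Ccne1, Ccne2, E2f1, Cdc45, Rrm1, Tyms, Cdc20, Cenpe and Birc5. The 3 G1/S regulators were all among them, and their SD over the 8 tumours (0.21 for Ccne1, 0.27 for Ccne2 and 0.21 for E2f1) was below the median of the replication genes (0.30) and of the mitotic genes (0.40). Over all genes tested the median SD was 0.31.

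The spread within each host depended on the scaling and on single tumours. In 36 of 41 members the SD between tumours was larger in the Ext1S100a4Cre host than in the WT host, against 57% of all genes tested. The median SD of a mitotic gene was 0.32 in the WT host and 0.48 in the Ext1S100a4Cre host. For replication genes it was 0.28 and 0.36. The 36 members became 27 with quantile normalization (55% of all genes) and 10 without scaling (51.5%), and 23 without Ext1S100a4Cre host tumour 2 (50.1%). They became 39 with scaling to the median (65.4%) and 39 without WT host tumour 3 (75.1%). The difference in spread was not tested, and the members are not independent of each other.

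**Figure D3:**
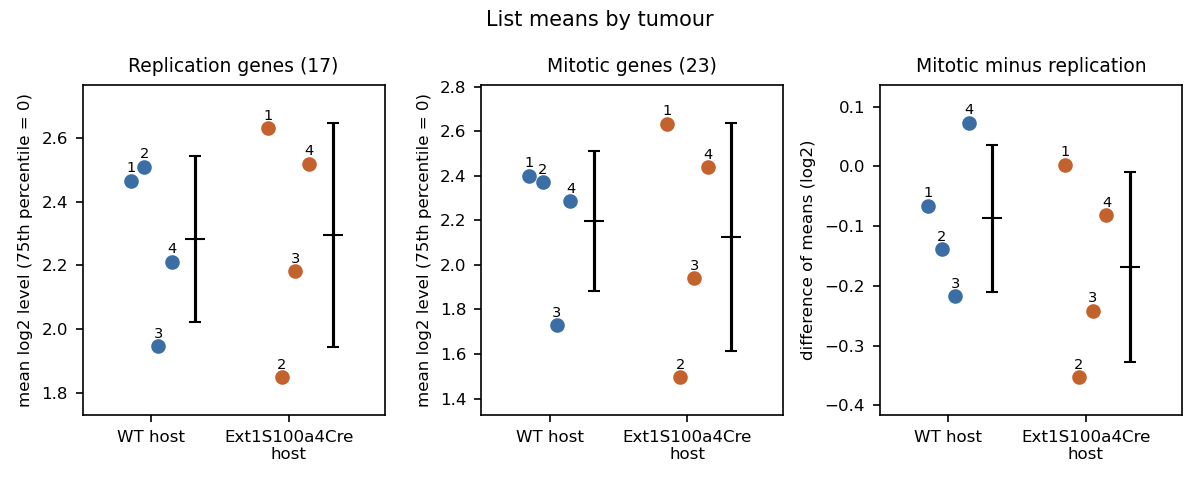
Mean log2 level of the 17 replication genes and of the 23 mitotic genes, and the difference of these means (y axes), in each tumour (numbered points) by host, with the mean and SD (n = 4) as bars. The hosts overlap in each panel, and Ext1S100a4Cre host tumours 1 and 2 are the highest and the lowest in both list means, where without scaling WT host tumour 2 is the highest.

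The mean of the mitotic genes had a wider range over the tumours than that of the replication genes, under each of 5 scalings. The difference of both means within a tumour, which scaling an array by 1 factor leaves as it is, was -0.066, -0.14, -0.22 and 0.073 in the WT host and 0.0031, -0.35, -0.24 and -0.081 in the Ext1S100a4Cre host. The lowest 3 were Ext1S100a4Cre host tumours 2 and 3 and WT host tumour 3, the tumours in which both lists were low, and WT host tumour 4 was the highest, as under all 5 scalings. By host it was -0.087 ± 0.12 and -0.17 ± 0.16 (SD, n = 4 each), a difference within the spread.

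The lowest tumours were the same pair under each scaling, whereas the highest were not. Ext1S100a4Cre host tumour 2 or WT host tumour 3 was the lowest in 39 of 40 members (47.8% of all genes) with scaling to the 75th percentile, in 39 with quantile normalization, in 39 after normexp background correction and in 40 with scaling to the median. Without any scaling it was 41 of 41, where the outlier spot of Mcm7 is included. Ext1S100a4Cre host tumour 1 was highest in 32, 19, 27, 37 and 0 members in the same order. The share of all genes highest there moved too, and was 23.6%, 24.8%, 28.8%, 42.4% and 2.87%. Without scaling, WT host tumour 2 had the highest mean of both lists. For Ext1S100a4Cre host tumour 2 or WT host tumour 3 as the lowest, the share of all genes was 51.1%, 40.6%, 55.5% and 43.7% under the 4 other scalings. The unscaled values moved the median difference of the members to -0.29 and that of all genes to -0.20, and with normexp background correction the median of all genes was 0.10.

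The sign of the difference between the hosts changed with the tumours included. Without Ext1S100a4Cre host tumour 2, 38 of 41 members were higher in the Ext1S100a4Cre host, with mean differences of 0.16 for replication and 0.14 for mitotic genes. Without Ext1S100a4Cre host tumour 1, 37 were lower, with -0.098 and -0.24. Without WT host tumour 3, 38 were lower, with -0.10 and -0.22. Leaving out the tumours without Y-linked signal, Ext1S100a4Cre host tumours 1 and 4, gave 39 lower members and mean differences of -0.26 and -0.48. Leaving out Ext1S100a4Cre host tumours 2 and 3 gave 40 higher members and 0.29 and 0.34. In none of these fits did a member pass limma's adjusted threshold. At unadjusted p under 0.05 there were Mki67 (-0.61) and Bub1 (-0.71) without tumours 1 and 4, where 5.82% of all genes were, and Birc5 (0.48), Ccna2 (0.57) and Mcm2 (0.80) without tumours 2 and 3, where 17.1% were. Within the 2 rows of the slide, which each held 2 tumours of either host, the signs were also opposite. In row 1, 40 of 41 members were lower in the Ext1S100a4Cre host, with mean differences of -0.24 and -0.32. In row 2, 37 were higher, with 0.28 and 0.18. Of all genes 53.6% were higher in the Ext1S100a4Cre host in row 1 and 58.5% in row 2.

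**Figure D4:**
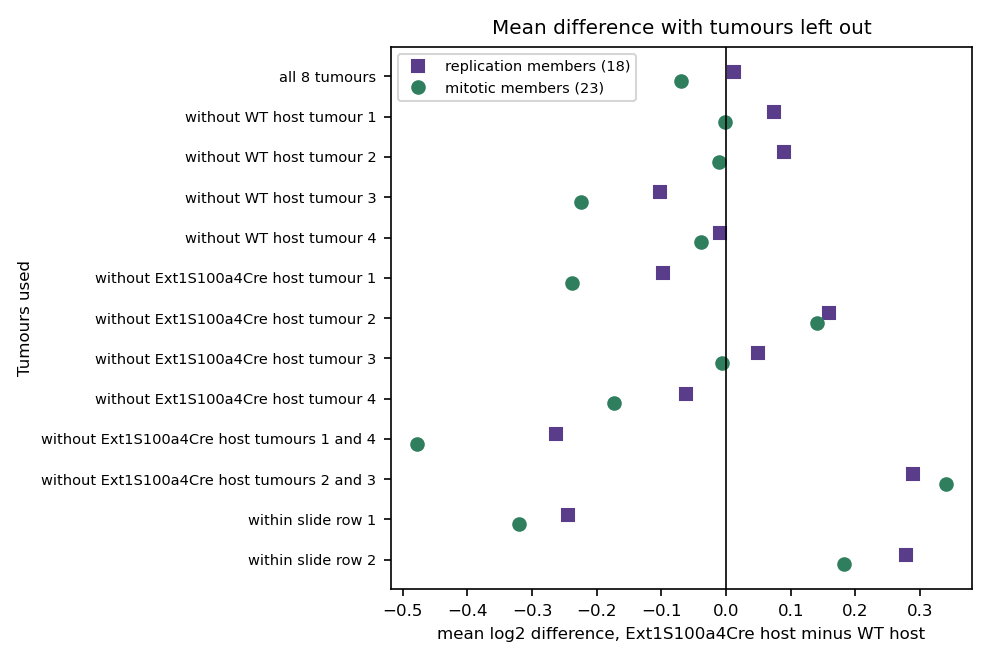
Mean log2 difference (Ext1S100a4Cre host minus WT host, x axis) of the 18 replication genes (squares) and the 23 mitotic genes (circles) with all 8 tumours, with tumours left out, and within each row of the slide (y axis). The values run from -0.48 to 0.34 and change sign with the tumours used.

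Markers of host cell types ran against the cell cycle genes in several tumours. The list mean of 12 macrophage markers was 0.62, 1.23, 3.07 and 0.71 in WT host tumours 1 to 4 and -2.47, 0.72, 1.37 and -0.64 in Ext1S100a4Cre host tumours 1 to 4. It was highest in WT host tumour 3, a tumour low in the members, and lowest in Ext1S100a4Cre host tumours 1 and 4, which were high in them. The 12 fibroblast markers gave 2.51, 3.03, 3.97 and 2.31 in the WT host and -0.31, 3.12, 2.49 and 1.90 in the Ext1S100a4Cre host, with the same tumours at either end. Col1a1, a fibrillar collagen, alone measured 4.51, 5.13, 6.61 and 5.07 in the WT host and 1.55, 4.68, 4.03 and 3.86 in the Ext1S100a4Cre host. The list mean of 12 T and NK cell markers ran from -2.06 to -0.14 in the WT host and from -3.37 to -0.83 in the Ext1S100a4Cre host, and that of 8 endothelial markers from -1.02 to -0.26 in the WT host and from -2.50 to -0.73 in the Ext1S100a4Cre host. All 12 macrophage and all 12 fibroblast markers had a lower mean in the Ext1S100a4Cre host, of which 4 and 2 had an unadjusted p under 0.05, against 6.55% of all genes, and 0 passed the adjusted threshold. Csf1r, the receptor that macrophages need to survive, and C1qc, a complement subunit they make, differed by -1.22 (SE 0.73) and -1.48 (SE 0.93), and the collagen genes Col1a1 and Col1a2 by -1.80 (SE 0.71) and -1.70 (SE 0.79). Of the T and NK cell and of the endothelial markers 0 had an unadjusted p under 0.05. Of the 8 endothelial markers 7 had a lower mean in the Ext1S100a4Cre host, against 41.9% of all genes. The median difference over the 8 was -0.47, and Vwf alone was higher. The T cell genes Lck and Cd4 differed by 0.18 and -0.13, and the endothelial genes Vwf and Emcn by 0.20 and -0.098, where Lck and Vwf were slightly below 0 without scaling.

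Ext1S100a4Cre host tumours 2 and 3, both low in cell cycle genes, stood apart in muscle. The list mean of the 10 skeletal muscle markers tested (of 12, with Myh2 and Myh4 too dim) was -4.26, -4.10, -4.74 and -4.32 in WT host tumours 1 to 4 and -4.11, -0.14, 0.89 and -3.26 in Ext1S100a4Cre host tumours 1 to 4. Tnnt3, a troponin of fast muscle, measured -1.55, -0.72, -2.89 and -3.11 in the WT host and -1.56, 1.88, 2.51 and -0.19 in the Ext1S100a4Cre host. Of these 10 markers 5 had an unadjusted p under 0.05, against 6.55% of all genes. All 5 were higher in the Ext1S100a4Cre host, and 0 passed limma's adjusted threshold. Mylpf, a myosin light chain of fast muscle, differed by 1.41 (SE 0.82). The 5 red cell markers tested (of 8) had their highest mean in Ext1S100a4Cre host tumour 2 (5.74), against 1.19 to 4.06 in the other 7. Of these 5, 4 had an unadjusted p under 0.05, against 6.55% of all genes. All 4 were higher in the Ext1S100a4Cre host, and 0 passed the adjusted threshold. The alpha globin genes Hba-a1 and Hba-a2 differed by 1.58 and 1.58, and are near-identical copies whose probes cannot be taken as separate readings. The 12 epithelial markers ran from 0.59 to 1.45 in the WT host and from 0.45 to 1.51 in the Ext1S100a4Cre host. Of these 12, 1 had an unadjusted p under 0.05, against 6.55% of all genes. Krt18 measured 5.05, 4.95, 5.28 and 5.71 in the WT host and 4.91, 6.16, 5.24 and 4.84 in the Ext1S100a4Cre host and was highest in Ext1S100a4Cre host tumour 2, in which the cell cycle genes were lowest. Krt8 varied less, between 3.96 and 4.69. The 7 B cell markers tested (of 8) ran from -3.76 to -2.75 in the WT host and from -4.66 to -4.01 in the Ext1S100a4Cre host. Of these 4 had an unadjusted p under 0.05, against 6.55% of all genes, and 0 passed the adjusted threshold. All 4 were lower in the Ext1S100a4Cre host. In the same 4 the hosts did not overlap, against 4.54% of all genes. The B cell marker read on the fewest arrays was well above background on only 4 of 8, as few as the filter allows. A dim marker of B cells, muscle or red cells can thus pass the filter through 1 host alone, so these counts are no support for a direction. Cd79b, a part of the B cell receptor, differed by -1.50 (SE 0.37) and Cd22, an inhibitory receptor of B cells, by 0.033. What part these cell types have in the levels of the cell cycle genes was not tested.

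**Figure D5:**
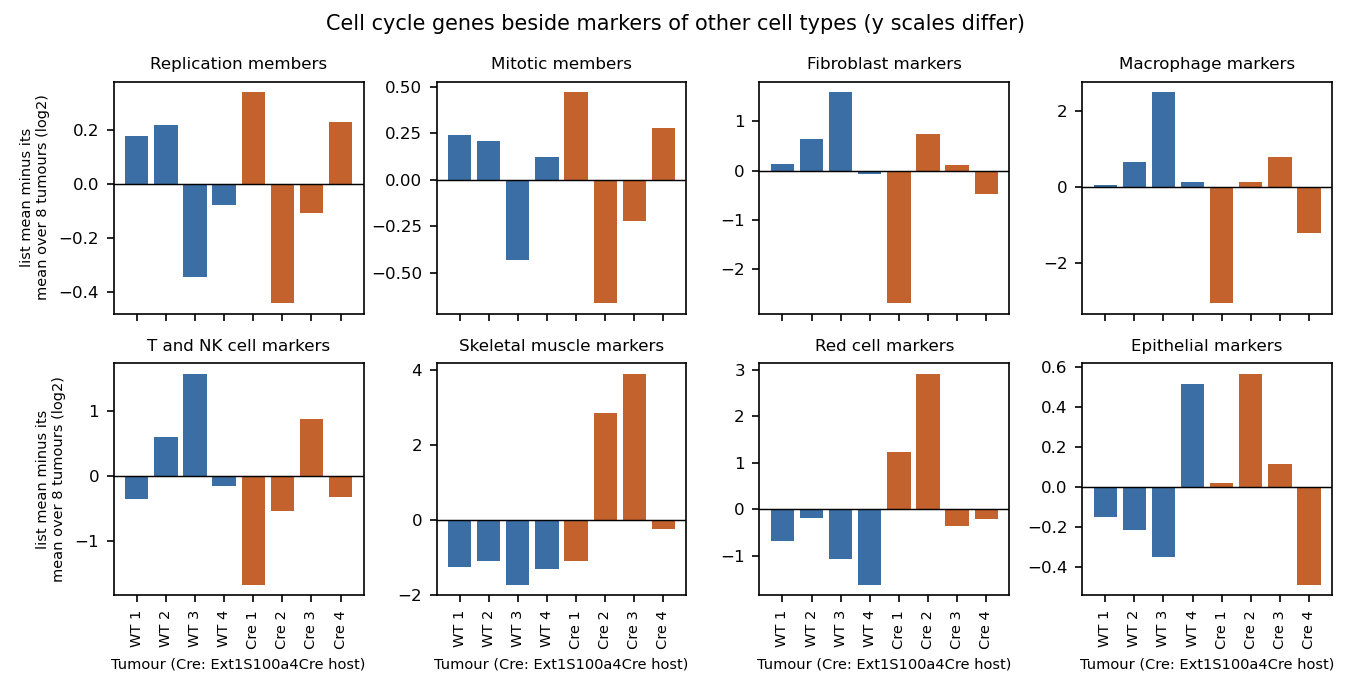
Each panel gives, per tumour (x axis), the mean log2 level of a list minus its mean over the 8 tumours (y axis, scales differ), in blue for the WT host and orange for the Ext1S100a4Cre host. The replication and mitotic genes are lowest in WT host tumour 3 and Ext1S100a4Cre host tumour 2. Macrophage and fibroblast markers are high in the former, and muscle and red cell markers in the latter. In Ext1S100a4Cre host tumour 2 fibroblast markers also lie above their mean over the tumours (by 0.74), and macrophage markers lie near theirs (0.14 above it).

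Other genes of replication and mitosis had mostly the same lowest tumours as the members. Of 40 further replication genes, all tested, 24 had a higher and 16 a lower mean in the Ext1S100a4Cre host, against 58.1% and 41.9% of all genes. Their median difference was 0.067, and limma called 0 with 0 at unadjusted p under 0.05, against 6.55% of all genes. Their lowest tumour was Ext1S100a4Cre host tumour 2 in 23 genes, against 16% of all genes, and WT host tumour 3 in 16, against 31.8%. The highest was Ext1S100a4Cre host tumour 1 in 20, against 23.6%. The order of the tumours in these genes was not computed under other scalings. Orc5, a subunit of the origin recognition complex, had the smallest p, with a difference of 0.34 (SE 0.19, limma adjusted p = 0.747). Orc4 and Orc1 of the same complex differed by 0.24 and 0.30, and Rpa1, which binds single-stranded DNA, by 0.23, where Orc4 and Rpa1 were slightly below 0 without scaling.

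Of 46 further mitotic genes, 17 had a higher and 29 a lower mean, with a median difference of -0.053. Limma called 0, and 1 had an unadjusted p under 0.05, against 6.55% of all genes. In 1 of the 46 the hosts did not overlap, against 4.54% of all genes, and it was the same gene. This was Pttg1, the securin that blocks the separation of sister chromatids until anaphase. It measured 4.01, 4.11, 3.60 and 3.71 in the WT host and 4.38, 4.39, 4.22 and 4.67 in the Ext1S100a4Cre host. Every Ext1S100a4Cre host tumour was above every WT host tumour, and Ext1S100a4Cre host tumour 2, the lowest for most members, was not low for Pttg1. Its difference was 0.55 (SE 0.16, limma adjusted p = 0.747, exact permutation p = 0.0286, the smallest that 4 against 4 tumours can give), and 0.30 without scaling. The lack of overlap fixes this permutation p, which adds nothing to it. Ncapd2, a condensin subunit, Spc24 of the outer kinetochore and Depdc1a differed by 0.35, 0.26 and -0.30, none past the threshold. Ext1S100a4Cre host tumour 2 was again the lowest in 28 of the 46 genes, against 16% of all genes, and WT host tumour 3 in 17, against 31.8%.

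Inhibitors of the cell cycle had no common order of the tumours. Of 15, 5 were highest in Ext1S100a4Cre host tumour 1, against 23.6% of all genes, and 3 were lowest in Ext1S100a4Cre host tumour 2, against 16%. Limma called 0 of 15, with 3 at unadjusted p under 0.05, against 6.55% of all genes, and in these 3 the hosts did not overlap, against 4.54%. Cdkn1a, the inhibitor p21, measured 0.79, 1.00, 0.98 and 0.76 in the WT host and 1.31, 1.48, 1.09 and 1.50 in the Ext1S100a4Cre host. Its difference of 0.46 (SE 0.14) had a limma adjusted p of 0.747. Cdkn1b, the inhibitor p27, was at 2.64, 2.52, 2.33 and 2.71 in the WT host and 3.26, 2.75, 2.78 and 3.03 in the Ext1S100a4Cre host, a difference of 0.40 (SE 0.16, limma adjusted p = 0.747). Cdkn2c, the Cdk4 and Cdk6 inhibitor p18, differed the other way. It measured -0.53, -0.44, 0.014 and -0.33 in the WT host and -0.83, -1.09, -0.69 and -0.84 in the Ext1S100a4Cre host, with a difference of -0.54 (SE 0.16, limma adjusted p = 0.747). Without scaling Cdkn1a differed by 0.21, Cdkn1b by 0.15 and Cdkn2c by -0.79. These 3 had an exact permutation p of 0.0286, which their lack of overlap fixes. Btg2, an antiproliferative gene, differed by 0.44 (SE 0.19) with overlap, and by 0.19 without scaling. In the list 9 genes were higher and 6 lower by their means, with a median difference of 0.096, and its mean per tumour ran only from 1.03 to 1.31.

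Among 12 G1 cyclins and kinases limma called 0, with 1 at unadjusted p under 0.05, against 6.55% of all genes. This was Ccnd2, cyclin D2, which measured 3.82, 4.08, 3.87 and 3.51 in the WT host and 5.14, 4.01, 4.67 and 4.75 in the Ext1S100a4Cre host. Ext1S100a4Cre host tumours 1, 3 and 4 were above all WT host tumours, and tumour 2 lay between them. The difference was 0.82 (SE 0.25, 95% interval 0.26 to 1.39, limma adjusted p = 0.747, exact permutation p = 0.0571). Its partner kinase Cdk4 and the related cyclin Ccnd1 differed by 0.21 and 0.26, and Ccnh, a subunit of the Cdk-activating kinase, by 0.15, with Cdk4 and Ccnh below 0 without scaling. Of 22 transcription regulators 11 were higher and 11 lower by their means, and limma called 0 with 0 at unadjusted p under 0.05. Myc, a growth-promoting transcription factor, measured 0.32, 0.15, 0.93 and 1.49 in the WT host and -0.11, 0.59, 0.51 and -1.19 in the Ext1S100a4Cre host and differed by -0.77 (SE 0.45, limma adjusted p = 0.747). The atypical repressor E2f7 differed by -0.39, the E2F partner Tfdp2 by 0.34 and the pocket protein Rbl1 by -0.25. Of 13 checkpoint and damage response genes 7 were higher and 6 lower, again with 0 called and 0 at unadjusted p under 0.05, and Clspn, Chek1, Chek2 and Dbf4 differed by -0.38, 0.28, -0.17 and -0.16.

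A second reading of some members came from their other probes. Of the 41 members 17 had more than 1 probe, which gave 20 further probes, all kept. In all 20 the lowest tumour was Ext1S100a4Cre host tumour 2 or WT host tumour 3, against 47.8% of all genes. In 14 the highest was Ext1S100a4Cre host tumour 1, against 23.6%. Other scalings were not computed for these probes. Their differences between the hosts ran from -0.28 to 0.12, and 11 had the sign of the probe used. Probes of 1 gene read the same RNA extracts, so they repeat the measurement and not the tumours.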

How the data were processed

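RNA of whole tumours was labelled with Cy3 and hybridised to 8 arrays, 1 a tumour, on 1 slide with 2 rows. The deposited intensity files hold spot intensities background-corrected by Agilent Feature Extraction (version 9.1 per the submitters' processing notes, 10.7.3.1 per the file headers), with flags for signal and outliers. The authors' deposited table of the series holds the same intensities and was used as the unscaled alternative. Probes were named through RefSeq accessions, 32994 of 56605 with a gene, and no coordinates were used. Log2 intensities minus the array's 75th percentile were computed from the deposited intensities, control and outlier spots were left out, a probe was kept where 4 or more of the 8 arrays read it well above background, and the probe with the highest mean stood for a gene. Hosts were compared with limma 3.58.1 (lmFit and eBayes, R 4.3.3), two-sided, with Benjamini-Hochberg adjustment over 31281 genes and transcripts at a threshold of 0.05, and for single genes with a two-sided exact permutation test over 70 assignments. Limma's fit was tested on simulated data. The number of arrays limits the precision.

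All 41 members are described, of each other cell cycle list the 4 genes with the smallest p, and of each marker list the 2 with the highest mean and all Y-linked genes; Ext1 was added as the targeted gene. The members and the gene lists were chosen with earlier results of these data known, and a list's counts are not independent evidence of its direction. Alternatives were other background correction, scalings, filters, probe summaries, blocks, array weights, variance priors and tumours left out. Sequences and positions of the members were not used here.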

Additional observations from a re-analysis of the deposited data

Results flagged for a closer look

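In 7 of 87 groups of 4 values tested, 1 tumour stood apart from the other 3 of its host by Dixon's criterion, which chance meets in about 1 in 20 groups. In 6 of them it was WT host tumour 3 in a mitotic gene. Kif11 was at -1.45 there against -0.51 to -0.49 in the other WT host tumours, and Cdk1 at 0.48 against 1.18 to 1.23. Tpx2 was at 0.42 against 0.95 to 1.00, and Nusap1 at 0.10 against 0.65 to 0.72. The kinases Aurka, at 3.04 against 3.58 to 3.65, and Plk1, at 3.18 against 3.77 to 3.88, were the others. E2f1 was at -0.14 in Ext1S100a4Cre host tumour 2, against 0.36 to 0.45 in the other tumours of that host. The groups share tumours and are not independent.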

How the results depend on the processing

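Limma called 0 members at an adjusted p of 0.05 under every alternative tried, with a lowest adjusted p of 0.281 for a member and of 0.109 among the 85 member, cell cycle and marker genes the text names. Over all genes the count past the threshold was 0 and became 1 with normexp background correction, 1 with array weights and 11 without Ext1S100a4Cre host tumours 1 and 4, and leaving out 1 tumour gave 0 to 2. The count at unadjusted p under 0.05, 2050 of all genes, became 3241 with the replicate number as a block, 3297 with array weights and 5361 without Ext1S100a4Cre host tumours 2 and 3. Mean differences of replication genes (0.013) and mitotic genes (-0.069) were -0.059 and -0.14 with quantile normalization, -0.23 and -0.32 without scaling, and -0.10 to 0.16 and -0.24 to 0.14 with 1 tumour left out. All these shifts were smaller than the pooled SD between tumours of a host (0.31 and 0.42), so the sign of either mean is not settled, and the cause of the changes was not tested. The replicate numbers were not taken as a pairing: deviations of tumours with the same number correlated at 0.49, -0.16, 0.59 and -0.25, and the replicate block left 0 members called and mean differences of 0.0092 and -0.069. The number of arrays, 4 a host, limits what could pass the threshold.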
